A study of Homo sapiens with 40 samples.

Results

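The genes described are CCL2 and 9 further genes for inflammatory mediators that are known targets of the transcription factor NF-kB, namely CXCL1, CXCL2, CXCL3, CXCL8, IL6, IL1A, CSF1, ICAM1 and TNFAIP3. They were chosen by name, and all 10 were found among the 59251 gene symbols of the count table. RNA sequencing counts were available for 40 libraries, 4 cultures of each of 10 lines of H1299, a human lung carcinoma cell line. The unedited lines, which carry MYO10 and JAG1 as wild type and received no treatment, were the parental cells, the 3L2 leader line and the 3F2 follower line. The other 7 lines were CRISPR-Cas9 edited clones that the series title ties to leader cells: WT 38 and WT 75 (MYO10 and JAG1 wild type), JAG1 KO 35 and JAG1 KO 72, MYO10 KO 98 and MYO10 KO 99, and clone 84. The genotype label of clone 84 is MYO10 KD, although its sample titles say KO, and it is called MYO10 KD 84 here. Each edited line is 1 clone, so a comparison of 2 lines rests on the spread between cultures of each and not on the spread between clones of a genotype, and nothing in the labels says how far the 4 cultures were separated from each other.

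NF-kB proteins are held in the cytoplasm by inhibitor proteins until a signal such as tumour necrosis factor or interleukin 1 activates a kinase complex that removes the inhibitor. The freed factor enters the nucleus and switches on genes for chemokines, cytokines and adhesion molecules, and also genes whose products end the signal. CCL2 attracts monocytes through the receptor CCR2. CXCL1, CXCL2, CXCL3 and CXCL8 attract neutrophils through CXCR2, CSF1 sustains macrophages, ICAM1 binds leukocyte integrins, IL6 and IL1A are cytokines, and TNFAIP3 (A20) is a feedback inhibitor of the pathway. In lung carcinoma such mediators are known to be made by the tumour cells themselves as well as by infiltrating cells, which a culture of a cell line does not contain.

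Library totals ran from 40038816 to 44013445 counts. Levels are given as CPM, counts scaled by the TMM-adjusted library total in the usual way. The leukocyte markers PTPRC and CD3E had at most 2 and 1 counts in any library, whereas CD68, a macrophage marker that many carcinoma lines also express, had 1846 to 4914. The 4 endothelial markers summed to 0.0235 to 1.20 CPM per library, with KDR at up to 33 counts and CDH5 at up to 3. The 4 fibroblast markers summed to 0.273 to 1.05 CPM, with DCN at 8 to 37 counts and LUM at up to 3. Of the epithelial markers KRT8 (143 to 28992 counts) and KRT18 (1958 to 33169) were present in every library, while EPCAM reached at most 9 counts and KRT19 at most 17. The edited genes were checked first. MYO10 averaged 63.4 ± 5.82 CPM in MYO10 KO 98, 52.0 ± 5.08 in MYO10 KO 99 and 149.7 ± 27.3 in MYO10 KD 84, against 490.4 ± 79.9 in WT 38 and 440.4 ± 66.9 in WT 75 (SD, n = 4 each). JAG1 averaged 6.49 ± 0.296 CPM in JAG1 KO 72 but 32.4 ± 1.76 in JAG1 KO 35 (SD, n = 4), with 44.2 ± 9.63 in WT 38 and 40.5 ± 1.38 in WT 75. The unedited leader line had 139.4 ± 18.7 CPM of JAG1, and the unedited follower line 0.112 ± 0.144 CPM of MYO10 (SD, n = 4). RNA levels of these genes thus did not follow the genotype labels alone. JAG1 was not called in the JAG1 KO clones against the wild-type clones (-1.55 ± 0.13 (SE); edgeR adjusted p = 0.54). The clones labelled JAG1 KO are named by that label below, and the sites of the edits are not given in the sources used here.

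CCL2 (chromosome 17, positions 34255218 to 34257203 on the plus strand of GRCh38) was almost confined to the wild-type clones, and they differed from each other. The 4 WT 75 cultures had 1400, 1931, 1696 and 3615 CCL2 counts, and the 4 WT 38 cultures had 124, 119, 127 and 98. Every WT 75 culture lay above every WT 38 culture, and every culture of the other 8 lines lay below both. Of the 9262 CCL2 counts in all 40 libraries, 93.31% came from WT 75 and 98.36% from WT 75 and WT 38 together. The level in WT 75 was 50.03 ± 23.4 CPM and in WT 38 2.84 ± 0.329 CPM (SD, n = 4), a ratio of 17.6. In edgeR's quasi-likelihood test the log2 fold change of WT 38 against WT 75 was -4.14 ± 0.25 (SE; adjusted p = 3.6e-13). In bulk RNA, fewer cells that express a gene and less RNA per cell cannot be told apart, and this holds for every gene below.

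In the remaining lines CCL2 was near the limit of counting. The leader cultures had 6, 12, 13 and 13 counts and the MYO10 KD 84 cultures 13, 31, 17 and 9, which gave 0.272 ± 0.0839 and 0.406 ± 0.229 CPM (SD, n = 4), with overlapping ranges. JAG1 KO 72 had 1, 4, 4 and 9 counts, JAG1 KO 35 had 4, 2, 4 and 0, MYO10 KO 98 had 1, 2, 1 and 2, and the parental cells had 1, 0, 3 and 0. No CCL2 read was counted in any culture of the follower line or of MYO10 KO 99. Of the 9 pairs of neighbours in the order of line means, WT 75 with WT 38 and WT 38 with MYO10 KD 84 had ranges that did not overlap, and the other 7 pairs overlapped.

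**Figure D1:**
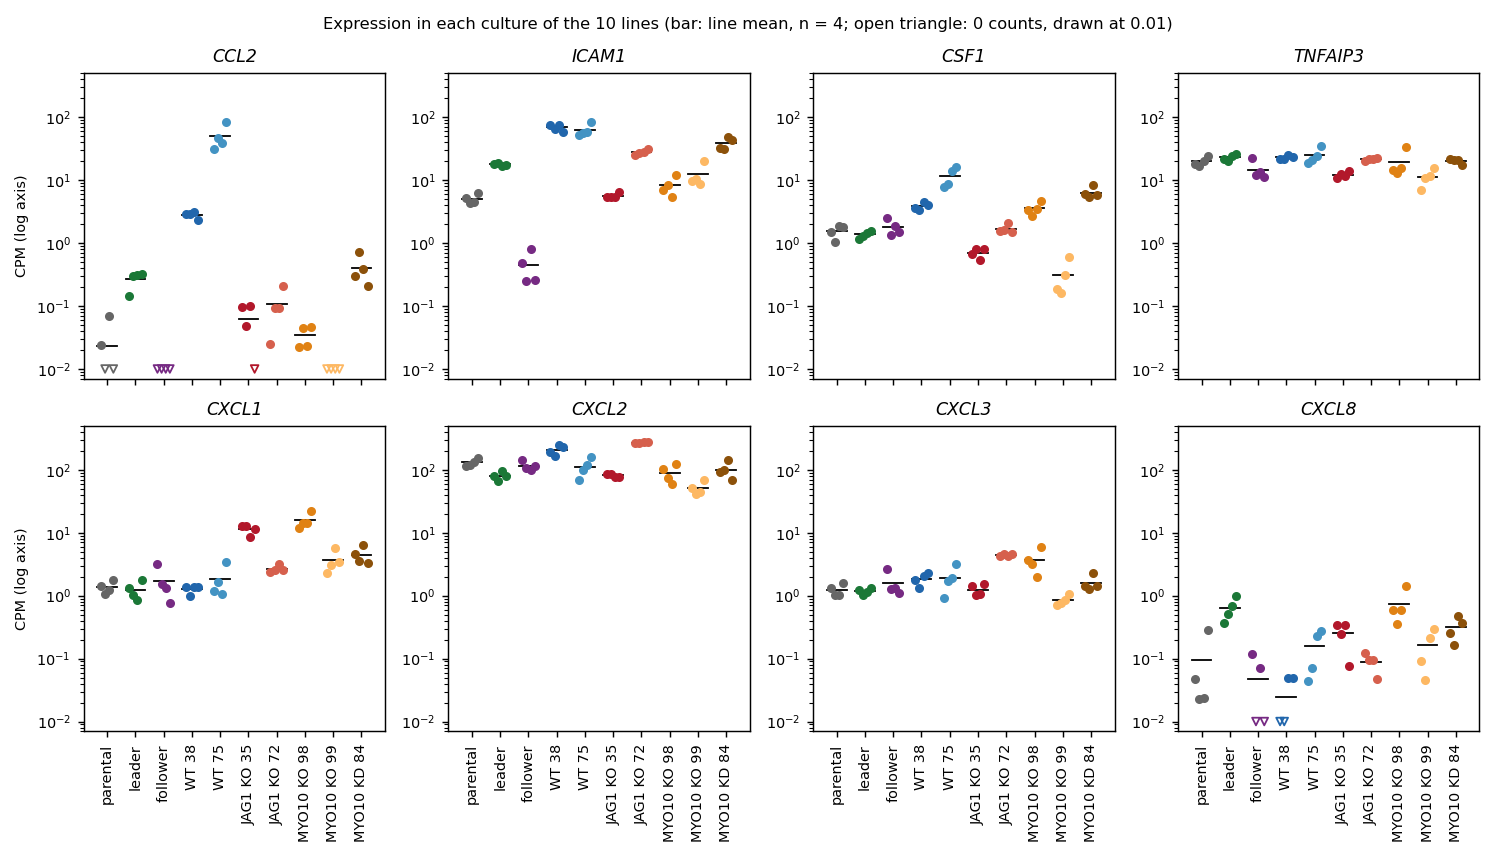
CPM (log axis) of the 8 mediator genes that were tested, in each of the 4 cultures of the 10 lines. Points are cultures, bars are line means, and open triangles are cultures with 0 counts drawn at 0.01. The WT 75 cultures lie between 31.2 and 83.8 CPM for CCL2, above all others, and TNFAIP3 keeps a similar level in all lines.

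Before the comparisons are described, the count of calls is given for each. A gene was called when its Benjamini-Hochberg adjusted p in edgeR's quasi-likelihood test was under 0.05 and its absolute log2 fold change at least 1. Of the 10 mediators 8 passed the filter on low counts, and IL6 and IL1A did not. Between WT 38 and WT 75, 2 of the 8 were called, both lower in WT 38 (CCL2 and CSF1), where 4.37% of all 19703 tested genes were called, 1.63% as higher and 2.74% as lower in WT 38. The median log2 fold change of the 8 was -0.31, against -0.01 for all tested genes.

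Among the unedited lines, 3 of the 8 were higher in leaders than in followers, where 25.4% of all tested genes were called, 12.7% in each direction. Against parental cells 3 were higher in leaders, with 9.76% of all genes called, 3.22% as higher and 6.54% as lower. In followers 1 was lower than in parental cells, with 20.3% called, 9.32% as higher and 10.9% as lower. Against the leader line the wild-type clones had 3 higher and 1 lower, with 9.98% of all genes called, 5.13% as higher and 4.85% as lower.

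The 2 JAG1 KO clones had 3 of the 8 lower than the 2 wild-type clones, where 2.06% of all tested genes were called, 0.31% as higher and 1.75% as lower. The 2 MYO10 KO clones had 1 higher and 2 lower, with 8.06% called, 4.91% as higher and 3.15% as lower. MYO10 KD 84 had 1 higher and 1 lower, with 7.19% called, 5.31% as higher and 1.87% as lower. These 3 comparisons share the wild-type clones as controls, so their changes are not independent of each other. In a comparison of several clones the p-value was the largest over all pairs of lines across the comparison, and the standard error covers cultures only. With the clone as the unit of the test, no mediator was called in either set of KO clones.

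Clones of 1 genotype differed as well. JAG1 KO 35 had 1 of the 8 higher and 4 lower than JAG1 KO 72, where 21% of all tested genes were called, 12.2% as higher and 8.78% as lower. MYO10 KO 98 had 4 higher than MYO10 KO 99, with 9.55% called, 4.27% as higher and 5.28% as lower.

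**Figure D2:**
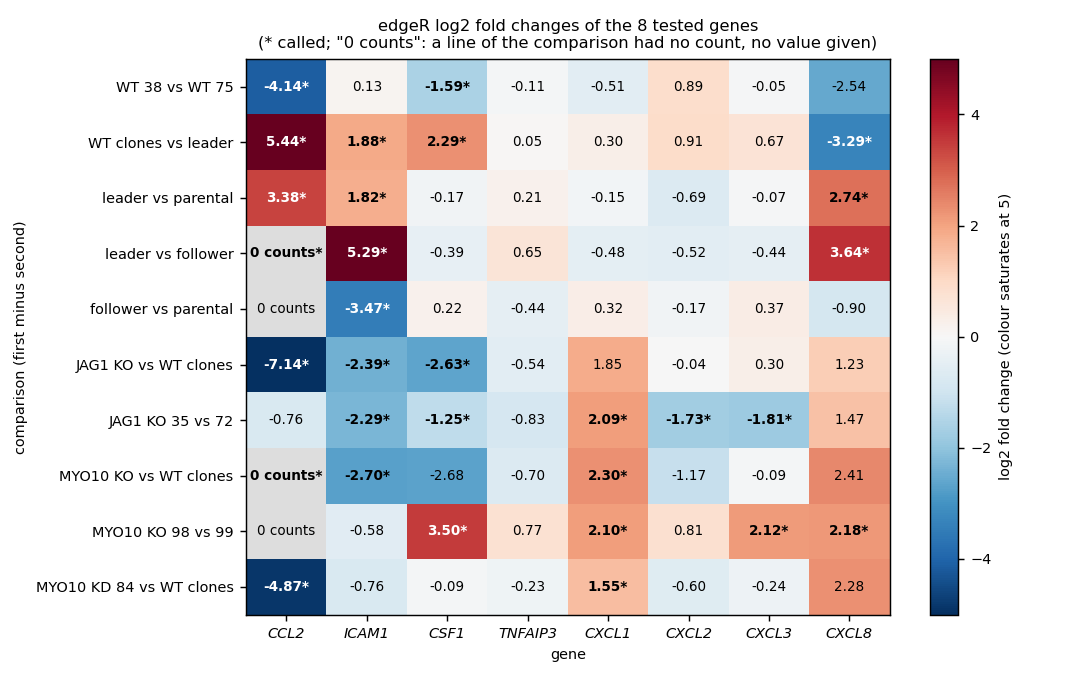
Log2 fold changes (edgeR, first group minus second) of the 8 tested genes in the 10 comparisons, with red for higher and blue for lower values and asterisks for called genes. Grey cells are comparisons in which a line had no CCL2 count, so that a fitted value would depend on the prior count. CCL2 and ICAM1 were called in the most comparisons, and no cell of TNFAIP3 was called.

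CCL2 was called in 7 of these comparisons. It was higher in leaders than in parental cells by 3.38 ± 0.95 on the log2 scale (SE; edgeR adjusted p = 0.0055), a value that rests on the 4 parental counts and was 4.68 without parental culture 3, which held 3 of them. Against the follower line, taken at a floor of 3 counts over its 4 libraries, the leader level was at least 14.7-fold higher (edgeR adjusted p = 0.00036). Both wild-type clones exceeded the leader line, with a log2 difference of 3.37 for WT 38 and 7.51 for WT 75 and an average of 5.44 ± 0.33 (SE; edgeR adjusted p = 2.7e-08). CCL2 in the clones labelled JAG1 KO was lower by 7.14 on the log2 scale than in the wild-type clones (SE 0.30; edgeR adjusted p = 1.3e-08). The range over the 4 pairs of lines was -9.59 to -4.69, and the level did not differ between JAG1 KO 35 and JAG1 KO 72 beyond the spread of their cultures (-0.76 ± 0.96; edgeR adjusted p = 0.51).

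CCL2 was also lower in the MYO10 KO clones than in the wild-type clones (edgeR adjusted p = 2.4e-10). With MYO10 KO 99 at the floor of 3 counts over its libraries, WT 38 was at least 164-fold and WT 75 at least 2880-fold higher than this clone. The log2 difference of MYO10 KO 98 from WT 38 was -6.26, the smallest of the 4 pairs of lines. MYO10 KD 84 also had less CCL2 than the wild-type clones, with a log2 fold change of -4.87 ± 0.31 (SE; edgeR adjusted p = 2.5e-07). A relation of CCL2 to the MYO10 level was not tested. MYO10 KD 84 was 1 clone, and the size of its CCL2 difference ran from -6.94 against WT 75 to -2.80 against WT 38.

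CSF1 (chromosome 1, positions 109910242 to 109930992), the macrophage growth factor, was the other mediator that differed between the wild-type clones. WT 75 cultures had 7.83, 8.66, 14.0 and 16.4 CPM and WT 38 cultures 3.59, 3.38, 4.52 and 4.09. The ranges did not overlap, and every WT 75 culture was higher. The log2 fold change of WT 38 against WT 75 was -1.59 ± 0.21 (SE; edgeR adjusted p = 1.5e-07). Across the 10 lines CSF1 ran from 11.7 ± 4.16 CPM in WT 75 through 6.35 ± 1.31 in MYO10 KD 84 and 3.89 ± 0.51 in WT 38 to 0.311 ± 0.198 in MYO10 KO 99 (SD, n = 4 each). Neighbours separated at 3 of the 9 steps of this order: between MYO10 KD 84 and WT 38, between MYO10 KO 98 and the follower line, and between the leader line and JAG1 KO 35.

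The unedited lines hardly differed in CSF1, with means of 1.38 ± 0.177 CPM in leaders, 1.55 ± 0.384 in parental cells and 1.80 ± 0.514 in followers and no call among them. The wild-type clones exceeded the leader line by 2.29 ± 0.22 on the log2 scale (SE; edgeR adjusted p = 2.9e-06). CSF1 was lower in the clones labelled JAG1 KO than in the wild-type clones (-2.63 ± 0.17 (SE); edgeR adjusted p = 0.00038). JAG1 KO 72, at 1.68 ± 0.270 CPM, overlapped the leader line, and JAG1 KO 35, at 0.706 ± 0.128, lay below it (SD, n = 4). No edited clone other than the wild-type ones was tested against the leader line. The MYO10 KO clones gave no common result. MYO10 KO 98 had 3.34, 2.69, 3.48 and 4.72 CPM, near WT 38, while MYO10 KO 99 had 0.185, 0.160, 0.306 and 0.592. The difference of 3.50 ± 0.30 between these clones (SE; edgeR adjusted p = 2.4e-12) was the largest among the mediators that could be fitted between them.

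ICAM1 encodes the adhesion molecule that leukocyte integrins bind (chromosome 19, positions 10270835 to 10286615), and it differed between each pair of the unedited lines. Its follower cultures had 20, 10, 34 and 10 counts, its parental cultures 218, 191, 190 and 264, and its leader cultures 753, 740, 698 and 705. The 3 ranges did not overlap. Leaders exceeded followers by 5.29 ± 0.35 (SE; edgeR adjusted p = 8.0e-15) and parental cells by 1.82 ± 0.24 (SE; edgeR adjusted p = 2.5e-07) on the log2 scale. The log2 fold change of followers against parental cells was -3.47 ± 0.38 (SE; edgeR adjusted p = 2.5e-09).

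Unlike CCL2, ICAM1 did not pass the test between the wild-type clones. WT 38 cultures had 75.0, 65.7, 75.8 and 58.5 CPM and WT 75 cultures 51.3, 56.4, 57.7 and 85.4, and the ranges overlapped. The log2 fold change was 0.13 ± 0.21 (SE; edgeR adjusted p = 0.71). Both wild-type clones lay above the leader line by 1.88 ± 0.20 (SE; edgeR adjusted p = 3.3e-08). ICAM1 was lower in the MYO10 KO clones than in the wild-type clones (-2.70 ± 0.16 (SE); edgeR adjusted p = 3.6e-10), with -3.05 to -2.34 over the 4 pairs of lines. MYO10 KD 84 had 38.8 ± 8.37 CPM (SD, n = 4), and although its adjusted p was 0.011 in edgeR's test, its log2 fold change of -0.76 ± 0.19 (SE) was under the threshold of 1.

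The clones labelled JAG1 KO were both below the wild-type clones in ICAM1 but far apart from each other. The leader line, at 17.9 ± 0.894 CPM (SD, n = 4), lay between them. JAG1 KO 35 had 5.40, 5.36, 5.33 and 6.58 CPM and JAG1 KO 72 had 24.7, 27.4, 27.8 and 30.8. The log2 fold change of the JAG1 KO clones against the wild-type clones was -2.39 ± 0.16 (SE; edgeR adjusted p = 0.00020), and that of JAG1 KO 35 against JAG1 KO 72 was -2.29 ± 0.24 (SE; edgeR adjusted p = 6.0e-10). The difference between the clones of 1 genotype was thus about as large as the difference between genotypes. Without a stated strand setting, the reads of ICAM1 and of 2 annotated antisense genes that overlap it cannot be told apart.

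TNFAIP3 (chromosome 6, positions 137867188 to 137883312), which removes ubiquitin chains that carry the NF-kB signal, was called in none of the 10 comparisons. Its line means lay between 11.2 ± 3.60 CPM in MYO10 KO 99 and 24.7 ± 6.93 in WT 75 (SD, n = 4). All 9 pairs of neighbours in the order of line means overlapped. The range of its line means was 1.15 on the log2 scale, close to the median of 1.19 over all tested genes, whereas that of CCL2 was 9.94, of ICAM1 7.25 and of CSF1 5.12. The range of CCL2 starts at lines without a count, so its size depends on the prior count. Adjusted p-values under 0.05 with a log2 change smaller than 1 arose for TNFAIP3 in edgeR's test between leaders and followers (0.65 ± 0.24 (SE)), between the JAG1 KO clones (-0.83 ± 0.24 for JAG1 KO 35 against JAG1 KO 72) and between the MYO10 KO clones (0.77 ± 0.24 for MYO10 KO 98 against MYO10 KO 99). As for ICAM1, an annotated antisense gene, AL357060.1, overlaps TNFAIP3, and without a stated strand setting their reads cannot be told apart.

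CXCL1, CXCL2, CXCL3 and CXCL8 lie together on chromosome 4. Their promoters are shown because the first 3 are near-identical in sequence over this stretch, while the levels of these genes followed different orders across the lines. The sequences are the 120 bases before each gene's start in RefSeq (GRCh38.p14), 5′ to 3′ on the gene's strand, with the match to GGANNNTCC in capitals. These letters, part of the kappa-B motif, read the same way on both strands.
CXCL1, chr4:73869273-73869392, plus strand: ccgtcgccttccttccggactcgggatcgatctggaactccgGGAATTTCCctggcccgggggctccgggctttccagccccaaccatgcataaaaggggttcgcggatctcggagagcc
CXCL2, chr4:74099196-74099315, minus strand: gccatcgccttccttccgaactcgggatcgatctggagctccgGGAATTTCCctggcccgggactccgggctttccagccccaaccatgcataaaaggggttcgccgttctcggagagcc
CXCL3, chr4:74038690-74038809, minus strand: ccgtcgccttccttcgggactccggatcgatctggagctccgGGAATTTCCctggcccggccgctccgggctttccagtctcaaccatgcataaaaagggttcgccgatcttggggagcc
CXCL8, chr4:73740449-73740568, plus strand: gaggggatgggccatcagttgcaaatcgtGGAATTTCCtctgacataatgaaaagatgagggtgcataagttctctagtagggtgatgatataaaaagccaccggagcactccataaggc
The match began 78 bases before the start in CXCL1 and CXCL3, 77 in CXCL2 and 91 in CXCL8. Aligned end to end, the 120 bases of CXCL1 and CXCL2 were 93.4% identical, those of CXCL1 and CXCL3 90.8% and those of CXCL2 and CXCL3 88.4%.

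Searched over the 250 bases before the start, the same letters occurred in 7 of the 8 mediators whose promoter was in the RefSeq table, against 7.8% of 35116 promoters. They were absent from this window in IL1A, and CCL2 and CSF1 were not analysed here for promoter sequence. IL6 held GGATTTTCC 72 bases and TNFAIP3 GGAAAGTCC 67 bases before the start. The motif was chosen after these promoters had been read, a match shows only that the letters are present, and so the count is a description. In ICAM1, which changed with CCL2 in several comparisons, the match lay farther up, 186 bases before the start. All these distances are to RefSeq starts, which can differ from the GENCODE v29 starts behind the gene positions given here. The ICAM1 and IL6 stretches searched lie inside the GENCODE spans of these genes.
ICAM1, chr19:10270870-10271119, plus strand: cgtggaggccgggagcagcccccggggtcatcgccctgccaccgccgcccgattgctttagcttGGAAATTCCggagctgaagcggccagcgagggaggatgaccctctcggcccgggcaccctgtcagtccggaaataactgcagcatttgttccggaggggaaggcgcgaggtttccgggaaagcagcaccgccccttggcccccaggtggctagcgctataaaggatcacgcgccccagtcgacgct

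CXCL2 was the most abundant of the 10 mediators per length in all 10 lines, with line means of 34.0 to 179.9 CPM per kb of exon (GENCODE v29 gene models). CCL2 ranked second per length in WT 75, at 25.2 CPM per kb, where CXCL2 stood at 74.4. In JAG1 KO 72 the CXCL2 cultures had 262.1, 269.1, 273.8 and 274.3 CPM and in WT 38 190.5, 165.8, 245.0 and 229.0. JAG1 KO 72 lay above WT 38, and WT 38 above the parental cells, without overlap, and the other 7 pairs of neighbours overlapped down to MYO10 KO 99 at 51.0 ± 11.9 CPM (SD, n = 4). JAG1 KO 35, at 81.4 ± 5.13 CPM, was lower than JAG1 KO 72 (-1.73 ± 0.22 (SE) on the log2 scale; edgeR adjusted p = 5.7e-08).

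Between the wild-type clones CXCL2 pointed the opposite way to CCL2. WT 75 cultures had 67.8, 98.1, 120.2 and 160.4 CPM, all below the WT 38 values. The log2 fold change of WT 38 against WT 75 was 0.89 ± 0.22 (SE; edgeR adjusted p = 0.0024), which is under the threshold of 1. It was 1.12, and past the threshold, without WT 75 culture 4. In no comparison of knockout or knockdown clones with the wild-type clones was CXCL2 called. The pairs of lines gave -1.35 to 1.27 for the JAG1 KO clones and -2.02 to -0.32 for the MYO10 KO clones.

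In the MYO10 KO and KD clones mean CXCL1 was higher, and mean CCL2 lower, than in the wild-type clones. MYO10 KO 98 had 12.0, 14.2, 14.1 and 22.2 CPM, MYO10 KO 99 had 2.29, 3.06, 5.78 and 3.46, and MYO10 KD 84 had 4.61, 3.56, 6.48 and 3.31. WT 38 cultures had 1.36, 1.00, 1.38 and 1.38 CPM, and WT 75 cultures 1.18, 1.63, 1.07 and 3.43. MYO10 KO 98 lay above both wild-type clones without overlap, whereas MYO10 KO 99 and MYO10 KD 84 overlapped WT 75 through its culture 4.

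The log2 fold change of CXCL1 in the MYO10 KO clones against the wild-type clones was 2.30 ± 0.24 (SE; edgeR adjusted p = 0.030), and that of MYO10 KD 84 was 1.55 ± 0.29 (SE; edgeR adjusted p = 0.0030). The first of these calls was lost when the fit held only the lines compared (adjusted p = 0.061 in edgeR) or left out WT 75 culture 1 (0.11), 2 (0.081) or 3 (0.12) or MYO10 KO 99 culture 3 (0.21). The MYO10 KO clones differed from each other by 2.10 ± 0.31 (SE; edgeR adjusted p = 9.3e-07). JAG1 KO 35 had 11.4 ± 2.04 CPM and JAG1 KO 72 2.68 ± 0.355 (SD, n = 4), a log2 difference of 2.09 ± 0.32 (SE; edgeR adjusted p = 8.3e-07). The JAG1 KO clones together did not pass the test against the wild-type clones (1.85 ± 0.25 (SE); edgeR adjusted p = 0.84). CXCL1 thus had its highest means in MYO10 KO 98 and JAG1 KO 35, which overlapped each other and were separate from the third, MYO10 KD 84.

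CXCL3 was low in every line, from 0.853 ± 0.155 CPM in MYO10 KO 99 to 4.39 ± 0.21 in JAG1 KO 72 (SD, n = 4). It was called only within genotypes. JAG1 KO 72 had 4.22, 4.58, 4.19 and 4.56 CPM against 1.40, 1.02, 1.07 and 1.52 in JAG1 KO 35, with no overlap (-1.81 ± 0.28 (SE) for JAG1 KO 35 against JAG1 KO 72; edgeR adjusted p = 8.1e-07). MYO10 KO 98 exceeded MYO10 KO 99 by 2.12 ± 0.30 (SE; edgeR adjusted p = 2.1e-07). The JAG1 KO pair therefore ordered CXCL1 one way and CXCL2 and CXCL3 the other, while the MYO10 KO pair had CXCL1 and CXCL3 higher in MYO10 KO 98. CXCL1, CXCL2 and CXCL3 are close paralogs, reads that fit more than one of them could be lost or misassigned in the counting, and their counts carry that uncertainty.

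CXCL8 had at most 61 counts in any library. Its leader cultures had 15, 20, 29 and 40 counts, its parental cultures 2, 1, 1 and 12, and its follower cultures 5, 0, 3 and 0. Every leader culture was above every culture of the other unedited lines. Leaders exceeded followers by 3.64 ± 0.70 (SE; edgeR adjusted p = 1.7e-05) and parental cells by 2.74 ± 0.61 (SE; edgeR adjusted p = 0.00040) on the log2 scale. These values were 4.57 without follower culture 1 and 4.25 without parental culture 4.

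CXCL8 was also the 1 mediator that was lower in the wild-type clones than in the leader line (-3.29 ± 0.55 (SE); edgeR adjusted p = 0.0036). WT 38 had 0, 0, 2 and 2 counts and WT 75 had 2, 3, 10 and 12, ranges that met at 2. The difference between them missed the threshold (-2.54 ± 0.98 (SE); edgeR adjusted p = 0.051), but it passed with library totals as the only scaling (0.046), without the filter on low counts (0.0038) and in DESeq2 (0.019). MYO10 KO 98, with 26, 16, 26 and 61 counts, exceeded MYO10 KO 99, with 4, 2, 9 and 13, by 2.18 ± 0.55 (SE; edgeR adjusted p = 0.0012).

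IL6 and IL1A were not tested. IL6 (chromosome 7, positions 22725884 to 22732002) had 9 counts in all, with 0 in 35 of the 40 libraries and at most 3 in any. It overlaps STEAP1B on the opposite strand, which had up to 1058 counts in a library. IL1A (chromosome 2, positions 112773915 to 112784590) had 142 counts in all and at most 9 in a library, and its line means ran from 0.0508 CPM in MYO10 KO 98 to 0.135 in the follower line. All of its neighbours in that order overlapped. In these libraries even LDHA, which most cultured cells express strongly, had at most 3 counts, so a value near 0 does not show that a transcript was missing.

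The mediators also varied between cultures of 1 line, and in most lines the highest values fell in 1 culture. In WT 75, culture 4 held the highest value of all 8 tested mediators and culture 1 the lowest of 7. Among the tested mediators counted in each line, culture 4 was highest in 7 of 7 in MYO10 KO 98, in 6 of 7 in MYO10 KO 99 and in the parental cells, in 6 of 8 in the leader line, and in 4 of 7 and 4 of 8 in JAG1 KO 35 and JAG1 KO 72. Culture 3 was highest in 6 of 7 in WT 38 and in 6 of 8 in MYO10 KD 84, and culture 1 in 5 of 6 in the follower line. The inhibitor gene NFKBIA is a direct NF-kB target that is not among the 10. Its highest value fell in culture 4 in WT 75, both MYO10 KO clones, both JAG1 KO clones, the leader line and the parental cells. In WT 38 and MYO10 KD 84 NFKBIA was highest in culture 3, and in the follower line in culture 1. It had 77.2, 91.8, 102.9 and 229.3 CPM in WT 75, 76.3, 71.8, 91.0 and 252.8 in MYO10 KO 98, and 32.5, 40.1, 51.6 and 98.3 in MYO10 KO 99. The cultures of WT 38 were closer together, with NFKBIA at 88.1, 80.8, 95.3 and 91.0 CPM.

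The difference of CCL2 between the wild-type clones did not rest on WT 75 culture 4. Leaving it out gave a log2 fold change of -3.77, and leaving out any of the 8 libraries in turn gave -4.31 to -3.77. In WT 75 the highest culture was 2.68 times the lowest for CCL2, 1.66 times for ICAM1, 1.83 times for TNFAIP3 and 2.97 times for NFKBIA. The median within-line SD of the 8 mediators was 0.40 on the log2 scale, against 0.19 for all tested genes. It ran from 0.31 for CXCL2 to 0.76 for CXCL8, which had at most 61 counts in a library. The genes were not matched for level, so counting error at low counts is part of this difference.

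**Figure D3:**
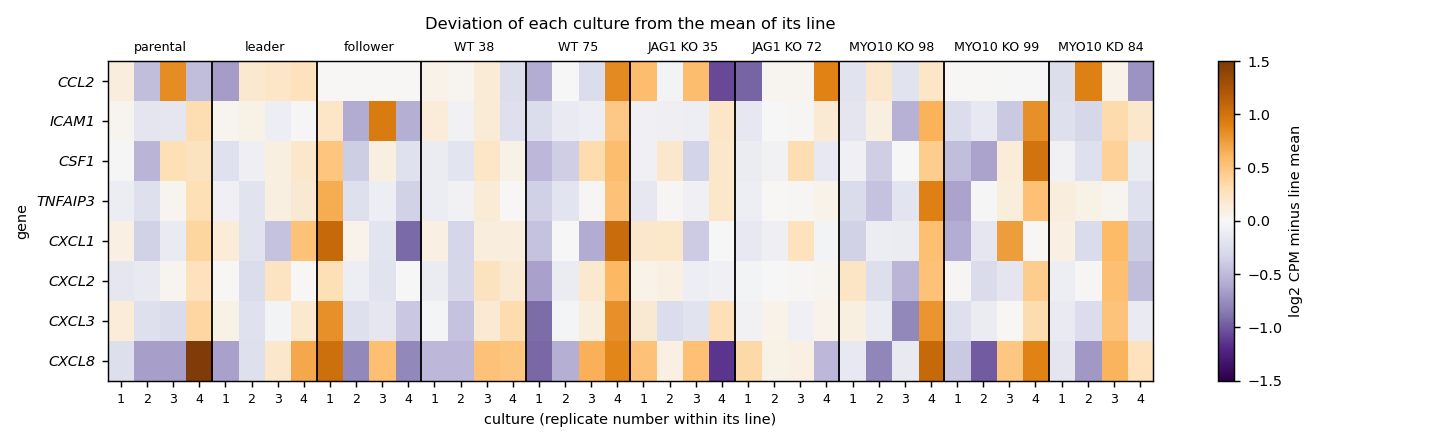
Deviation of each of the 40 cultures from the mean of its line (log2 CPM, prior count 2) for the 8 tested mediators, with orange for higher and purple for lower values and vertical lines between lines. Culture 4 of WT 75 and of MYO10 KO 98 is orange in every row, and the follower and MYO10 KO 99 cultures are blank for CCL2 because all had 0 counts.

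Over the 10 line means of log2 CPM, ICAM1 followed CCL2 with a Pearson r of 0.70 (Spearman rho 0.89), CSF1 with 0.74 (0.61) and TNFAIP3 with 0.64 (0.83). The neutrophil chemokines had lower coefficients, with r of 0.24 (rho 0.20) for CXCL2, 0.10 (0.41) for CXCL3, -0.12 (0.07) for CXCL8 and -0.34 (-0.19) for CXCL1. These coefficients describe 10 lines, with all genes read from the same libraries and the edited lines sharing an origin, and they carry no test. CCL2 averaged under 1 CPM in 8 of the lines, so most of its positions rest on low counts. The follower line and MYO10 KO 99, without a CCL2 count, stand at a value set by the prior count. The same limit holds for the genes named next. Among 15022 genes with a line mean of at least 1 CPM in some line, the 5 whose line means were most like those of CCL2 were NUF2 (r = 0.92), SNORD78 (0.86), GAS5 (0.86), MMD (0.85) and LOC101929270 (0.84). Their own ranges were small: NUF2 lay between 79.7 CPM in followers and 134.7 in WT 75. SNORD78 is hosted in GAS5, so the reads of both are not separate evidence.

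**Figure D4:**
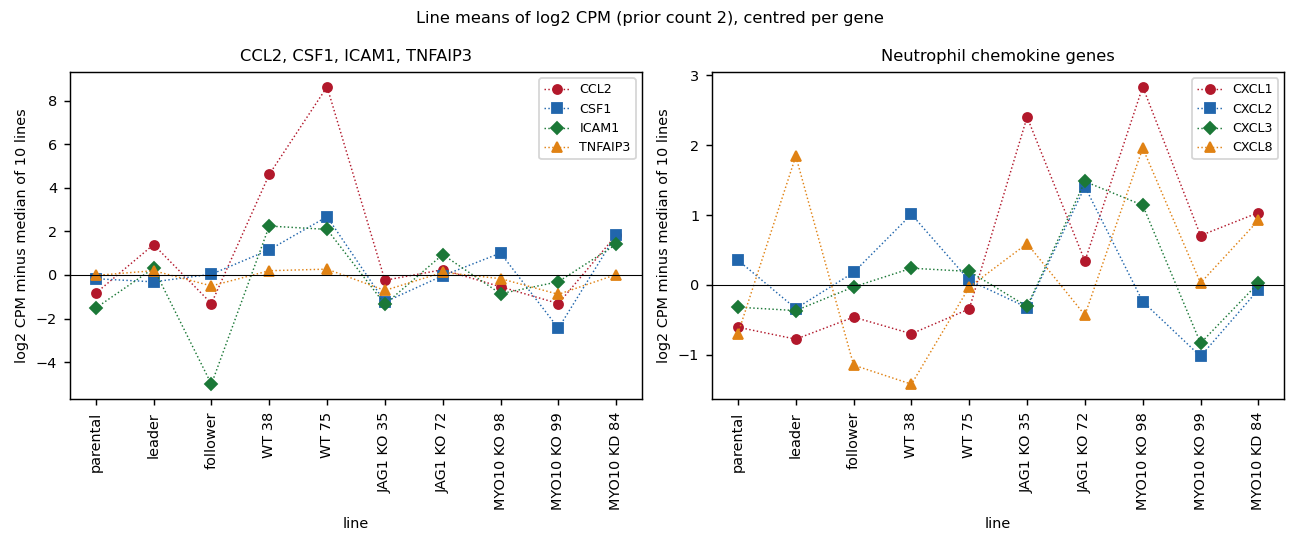
Line means of log2 CPM (prior count 2), each gene centred on its median over the 10 lines, for CCL2, CSF1, ICAM1 and TNFAIP3 on the left and the neutrophil chemokine genes on the right. Dotted lines only join the points of a gene. On the left WT 38 and WT 75 hold the highest points of CCL2 and ICAM1, and on the right each gene has its highest point in another line than CCL2.

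Of 105 further genes of the pathway, 71 were tested, and few differed between the wild-type clones. None of the 5 NF-kB subunits was called there, none of the 11 tested inhibitors and feedback genes, and none of the 21 kinases and adaptors. RELA had 71.4 CPM in WT 38 and 72.0 in WT 75. Higher in WT 38 was IL1R1, the interleukin 1 receptor (1.04 ± 0.20 (SE); edgeR adjusted p = 8.2e-05), and lower were the TNF receptor TNFRSF1B (-1.46 ± 0.24), the TNF-induced gene TNFAIP2 (-1.44 ± 0.28) and the immediate early factor EGR1 (-1.93 ± 0.61). The counts of 1 higher and 3 lower among 71 compare with 4.37% of all genes. Of 10 genes beside the CCL2 or CXCL clusters none had enough counts to be tested. CCL7, the neighbour of CCL2, had 5, 12, 7 and 7 counts in the WT 75 cultures and 0 in every WT 38 culture.

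Against the leader line the wild-type clones had 6 of the 71 higher and 6 lower, beside 5.13% and 4.85% of all tested genes. The adaptor gene TRAF1 (1.30 ± 0.32), the ubiquitin ligase gene BIRC3 (1.35 ± 0.35), the receptor gene CD40 (1.54 ± 0.07) and the cytokine gene IL32 (1.48 ± 0.26) were higher on the log2 scale (SE), as CCL2, CSF1 and ICAM1 were. Lower, as CXCL8 was, were the cytokine gene IL11 (-3.82 ± 0.33) and the chemokine gene CXCL10, which had 0.191 CPM in leaders and 0.00306 in the wild-type clones. The clones labelled JAG1 KO had 1 of the 71 lower than the wild-type clones, IL1R1 (-1.53 ± 0.16 (SE); edgeR adjusted p = 0.018), and none higher, beside 1.75% and 0.31% of all tested genes. The MYO10 KO clones had 5 lower, among them IL32 (-4.03 ± 0.25 (SE)) and TRAF1 (-2.39 ± 0.26 (SE)), and 1 higher, IL11 (2.28 ± 0.34 (SE)), beside 3.15% and 4.91% of all tested genes. None of the 5 subunits was called in either of these comparisons.

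JAG1 KO 35 had 10 of the 71 higher and 6 lower than JAG1 KO 72, near the 12.2% and 8.78% of all tested genes. The lower ones included TRAF1 (-2.90 ± 0.38 (SE)) and IL32 (-2.86 ± 0.34 (SE)), which were lower there together with ICAM1. MYO10 KO 98 had 10 higher and 2 lower than MYO10 KO 99, beside 4.27% and 5.28% of all tested genes, including NFKBIA (1.14 ± 0.37 (SE)) and BIRC3 (1.62 ± 0.39 (SE)) as higher ones. For both genes the culture ranges of the clones overlapped. BIRC3 ran from 48.0 to 407.0 CPM in MYO10 KO 99 and from 382.8 to 834.9 in MYO10 KO 98. Leaders had 7 of the 71 higher and 12 lower than followers, beside 12.7% of all tested genes in each direction. RELB, lower in leaders, was the 1 subunit called in any comparison (-1.07 ± 0.20 (SE); edgeR adjusted p = 2.1e-05). Lower in leaders were also the feedback genes NFKBID (-1.82 ± 0.15 (SE)) and ZFP36L1 (-1.98 ± 0.14 (SE)), while IL1R1, with 4.38 CPM in leaders and 0.0187 in followers, was higher (edgeR adjusted p = 2.6e-18). The receptor genes CCR2 and CXCR2 of the chemokines had at most 1 count in any library.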

How the data were processed

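Per the submitters' processing notes, the authors' tools were fastp 0.23.4, FastQC 0.12.0 and MultiQC 1.24.1, beside HTSeq 2.0.5 and STAR 2.7.11b, on human build hg38, and per the labels' protocols total RNA was sequenced on a NovaSeq X-Plus after a DNA library kit. The deposited table holds raw counts per gene symbol for 40 libraries. The annotation release and strand setting are not given in the sources used here.

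From these counts, edgeR 4.0.16 in R 4.3.3 fitted 1 coefficient per line to all 40 libraries (TMM factors 0.952 to 1.06; filterByExpr with a minimum count of 10; robust quasi-likelihood test; 30 residual degrees of freedom; no replicate block). The 19703 genes kept held 99.96% of the counts. P-values were adjusted by Benjamini-Hochberg over these genes. Where a comparison joins several clones, a gene's p is the largest over pairs of lines, or 1 where pairs differ in direction, and the log2 fold change is their average. CPM uses TMM-scaled totals, and log2 CPM a prior count of 2. Floors of 3 counts are over a line's 4 libraries, and floors cover counting error only. The scripts were tested on simulated data.

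The 10 genes, the pathway lists and the comparisons were chosen with earlier results of these data known. The genes named are the 10 mediators, MYO10 and JAG1, up to 2 called genes at each end of a pathway list, and the 5 genes most like CCL2. NFKBIA by culture, RELA, BIRC3, CCL7, LDHA and the receptor genes were added after their values were seen. Gene positions and exon lengths are from GENCODE v29, which may differ from the authors' annotation. Alternatives tried were other scalings, filters, DESeq2 1.42.0, fewer lines, a replicate block, each library left out, an adjusted p alone and the clone as the unit.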

Additional observations from a re-analysis of the deposited data

Results flagged for a closer look

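Of 80 sets of 4 cultures examined, a gene in a line, 9 had 1 culture farther from the other 3 than Dixon's 95% limit of 0.829 for the gap over the range, and chance alone flags about 1 set in 20. Their values are CPM. High were MYO10 KO 98 culture 4 for TNFAIP3 (33.3, with the others at 13.0 to 15.6), MYO10 KO 99 culture 4 for ICAM1 (20.4, others 8.77 to 10.5) and JAG1 KO 35 culture 4 for ICAM1 (6.58, others 5.33 to 5.40). Parental culture 4 was high for CXCL8 (0.282, others 0.0230 to 0.0473). High for CXCL3 were follower culture 1 (2.68, others 1.12 to 1.34) and MYO10 KD 84 culture 3 (2.25, others 1.30 to 1.44), and JAG1 KO 72 culture 3 was high for CSF1 (2.08, others 1.51 to 1.60). Low were leader culture 1 for CCL2 (0.146, others 0.304 to 0.324) and WT 38 culture 2 for CXCL1 (1.00, others 1.36 to 1.38). WT 75 culture 4, which was highest for all 8 tested mediators, passed this limit for none of them.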

How the results depend on the processing

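CCL2 was lower in WT 38 than in WT 75 under every alternative run, with log2 fold changes of -4.18 to -4.05 and, with 1 library left out, -4.31 to -3.77. With the clone as the unit (counts summed per line, 3 residual degrees of freedom), 0 genes and 0 mediators were called by edgeR in the JAG1 KO clones and 0 and 0 in the MYO10 KO clones, although 1328 and 2716 genes had an unadjusted p under 0.05. The adjusted p of the mediators then was 0.82 for JAG1 KO and 0.38 to 0.41 for MYO10 KO. With the adjusted p alone as the call rule, the genes called numbered 5029 for WT 38 against WT 75, 12818 for leaders against followers (5 mediators), 7305 for leaders against parental cells, 12024 for followers against parental cells, 6720 for wild-type clones against leaders, 1244 for JAG1 KO, 4680 for MYO10 KO, 5664 for MYO10 KD 84, 12205 between the JAG1 KO clones and 8762 between the MYO10 KO clones (7 mediators). With at least 1 CPM required in 4 libraries, fewer genes were tested and the counts were 566 for WT 38 against WT 75, 3312 for leaders against followers, 2578 for followers against parental cells, 2740 between the JAG1 KO clones and 1224 between the MYO10 KO clones. Changes of direction arose in uncalled values alone: with 1 library left out, CXCL3 between WT 38 and WT 75 ran from -0.29 to 0.29 (0.086 without WT 38 replicate 2 and the highest without WT 75 replicate 4), and TNFAIP3 from -0.22 to 0.094 (the highest without WT 75 replicate 4). The cause was not tested. The labels give the replicate numbers no shared day or batch. Same-numbered cultures of different lines had a median correlation of deviations over all tested genes of 0.0212, with 21 of 180 pairs over 0.1. Differently numbered ones had -0.0111, with 20 of 540, a smaller share. The numbers were not taken as pairs because the labels name no shared batch. Whether same-numbered cultures share an effect was not tested. With the number as a replicate block, CCL2 between the wild-type clones was -4.05 and 870 genes were called there, and CXCL8 passed the threshold (edgeR adjusted p = 0.022). Between the JAG1 KO clones 6 mediators were then called instead of 5. Low counts, as for CCL2 outside the wild-type clones (at most 31 in a library), limit the fold changes that rest on them.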
